A study of Mus musculus with 6 samples.

Results

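The genes described here are 10 named regulators and membrane genes of skeletal muscle: the transcription factors Myod1, Myf5, Myf6, Myog and Mef2c, the satellite cell factor Pax7, the secreted growth inhibitor Mstn, and Chrna1, Musk and Dmd of the nerve-muscle synapse and the fibre membrane. They were taken by symbol, with all their probe sets. Of the 10, 9 had a probe set, 18 probe sets in all among 45037, and Mstn was not analysed here. The list addresses whether genes of satellite cells and of the synapse accompany the muscle fibre transcripts that endosteal RNA carries.

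The arrays held endosteal RNA (3 arrays) and central marrow RNA (3 arrays) from the femurs of 3 male C57BL/6 mice, 8 weeks old, all given saline into the peritoneum. Endosteal RNA was what Trizol, a phenol lysis reagent, released when it was run through the emptied shaft. Central RNA came from the cells flushed out of that shaft beforehand, pelleted before lysis. By the labels the bone had been scraped and rubbed to clear muscle and periosteum, and its ends cut off, before either step. In such bulk RNA, fewer cells of a type and less RNA per cell cannot be told apart.

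A muscle fibre forms by fusion of myoblasts, and satellite cells, the stem cells of adult muscle, lie between a fibre and its basal lamina. Pax7 marks satellite cells. Myf5 and Myod1 commit them to the muscle lineage, Myog drives their differentiation, and Myf6, also called MRF4, is the member of this family that adult fibres transcribe most. These factors bind the E-box, a short DNA element with the letters CANNTG, and Mef2c is their partner. At the synapse the kinase Musk gathers acetylcholine receptors, whose alpha subunit is the Chrna1 product, under the nerve ending, and dystrophin, from Dmd, ties the fibre's actin to its membrane.

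The letters upstream of 3 members are shown because they differ in E-boxes and in signal: Chrna1 and Musk at the synapse and Myog, itself a member of the E-box binding family. Each is the 250 bases before a transcript start in RefSeq, build GRCm38.p6, read 5′ to 3′ on the gene's strand. Capitals mark every match to CANNTG, which reads the same on both strands. For Chrna1 and Myog that start is the outer end of the annotated gene. The annotated Musk gene begins at 58285729, so most of its window lies within the gene.
Chrna1 (chr2:73580339-73580588, minus strand): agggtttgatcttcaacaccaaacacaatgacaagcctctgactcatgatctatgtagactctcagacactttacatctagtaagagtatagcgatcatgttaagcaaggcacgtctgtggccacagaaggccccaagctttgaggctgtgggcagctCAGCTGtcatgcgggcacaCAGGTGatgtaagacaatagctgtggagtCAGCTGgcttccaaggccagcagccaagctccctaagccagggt
Musk (chr4:58285712-58285961, plus strand): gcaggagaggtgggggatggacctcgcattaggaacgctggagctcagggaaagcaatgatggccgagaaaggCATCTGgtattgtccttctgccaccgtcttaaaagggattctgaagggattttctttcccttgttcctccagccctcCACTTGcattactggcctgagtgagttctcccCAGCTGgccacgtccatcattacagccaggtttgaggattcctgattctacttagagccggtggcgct
Myog (chr1:134289754-134290003, plus strand): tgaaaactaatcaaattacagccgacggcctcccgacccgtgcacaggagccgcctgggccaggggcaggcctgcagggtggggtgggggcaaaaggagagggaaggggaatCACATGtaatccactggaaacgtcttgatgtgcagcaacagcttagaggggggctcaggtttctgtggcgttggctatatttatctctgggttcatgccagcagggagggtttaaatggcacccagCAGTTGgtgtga
The Chrna1 window held 3 matches, of which 2 read CAGCTG. Musk had 3 matches, of which 1 read CAGCTG, and Myog had 2, of which 0 did. Of 32851 such windows in the table, 66.2% held CANNTG and 13.0% held CAGCTG, so a match by itself is common. RefSeq windows were found for 8 of the 10 members, and none for Myod1 or Myf6.

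All values are the authors' probe set signals, in arbitrary linear units. No detection calls were used here, so signals of olfactory receptor genes, which bone and marrow are not expected to transcribe, served as a guide to what a probe set can read without its transcript. Their 43 probe sets had a median signal of 37.3 on endosteal and 24.2 on central arrays, and a 95th percentile of 95.8 and 54.7. Below, near background means a regional mean under that percentile. Probe sets differ in affinity, so this is a guide and no detection test. Low signals also read somewhat higher on endosteal arrays: the olfactory probe sets differed by a median of 0.43 on the log2 scale, from -1.37 to 1.82, and on 11 of the 43 all endosteal arrays lay above all central arrays. Differences were tested with limma on log2(signal + 16), which understates the change of a gene with a low signal, with region as the only term, and Benjamini-Hochberg adjustment over 18193 genes, each taken as its probe set of highest mean signal. A gene is called when its adjusted p is under 0.05.

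Of the 9 measured members, Myf6 rose in endosteal RNA and the other 8 were not called. That is 1 of 9 called higher, where 7.92% of all genes were, and 0 of 9 called lower, where 4.02% were. At an unadjusted p under 0.05, 5 of 9 were higher, against 17.9% of all genes, and 0 of 9 were lower. In 4 of 9 all endosteal arrays lay above all central arrays, against 22.3% of all genes. The median log2 change of the 9 was 0.81, beside 0.10 for all genes. Of the 18 probe sets, tested over all 45037, 1 was called higher (3.21% of all were) and 0 lower (1.29% of all were). In 9 of the 18 the endosteal arrays all lay above the central ones, against 17.8% of all probe sets. Probe sets of the same gene are not separate observations, and Mef2c, Myod1 and Dmd each gave more than 1 of the 9.

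**Figure D1:**
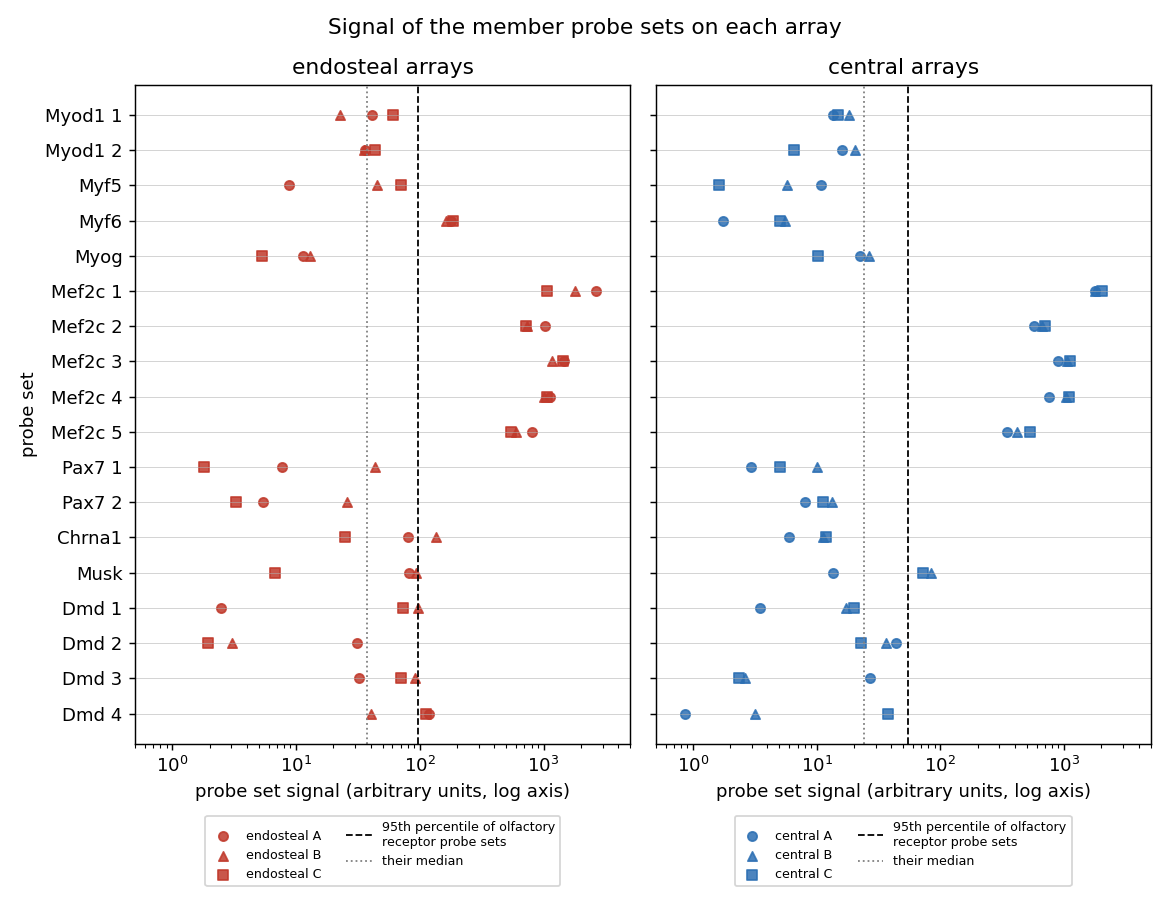
Probe set signal (arbitrary units, log axis) of the 18 member probe sets on the 3 endosteal arrays (left, red) and the 3 central arrays (right, blue); markers give the array letter, numbers tell probe sets of 1 gene apart, the dashed line the 95th percentile and the dotted line the median of 43 olfactory receptor probe sets in that region. Myf6 stands at 161.7 to 184.2 on endosteal arrays and at 1.74 to 5.50 on central arrays, Mef2c does not fall under 343 on any array, and most other probe sets lie left of the dashed line.

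Myf6 was the member that changed. Its single probe set had signals of 179.5, 161.7 and 184.2 in endosteal samples A to C, against 1.74, 5.50 and 5.01 in central samples A to C. The endosteal arrays stood close together and far above the central ones, which read at the low end of the olfactory receptor range (3 of 43 olfactory probe sets read lower). The means were 175 ± 11.9 in endosteal and 4.08 ± 2.04 in central RNA (SD, n = 3 each), and the endosteal mean exceeded all 43 olfactory probe sets. The log2 change was 3.25 (SE 0.14, 95% interval 2.91 to 3.60, adjusted p = 0.00172, limma), and 107 of 18193 genes had a larger one. With the letter shared by both regions as a block, Myf6 kept its call among genes (adjusted p = 0.0443) but not among all probe sets (adjusted p = 0.0897), where that fit called 0. Its size depended on the pseudocount: the change was 5.21 with a pseudocount of 1 and 1.81 with 64.

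The other factors of the same family read near background in both regions. Myod1, which commits cells to the muscle lineage, had 41.1, 22.8 and 60.3 in endosteal samples A to C, against 13.7, 18.3 and 15.0 in central samples A to C. All endosteal arrays lay above all central ones, and its second probe set did the same, with 38.2 ± 4.17 against 14.3 ± 7.01 (SD, n = 3 each). The log2 difference of the first was 0.81 (SE 0.27, 95% interval 0.15 to 1.46) and was not called (adjusted p = 0.110, limma); 14 of the 43 olfactory probe sets showed a larger one. Scaling the arrays to the poly-A control RNAs, which raised the median of all genes to 0.97, gave 1.41 (adjusted p = 0.00779). That scaling called 10531 of all 18193 genes higher. Centring each array on its median gave 0.53.

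Myf5, the earliest of the factors in the muscle lineage, had 8.71, 45.4 and 70.1 in endosteal samples A to C and 10.8, 5.76 and 1.63 in central samples A to C. Endosteal array A fell among the central arrays while B and C lay above them. The difference was 1.22 (SE 0.48, adjusted p = 0.165, limma), and it passed without endosteal array A (1.74, adjusted p = 0.0396). It also passed after scaling to the poly-A controls (1.68, adjusted p = 0.0266), where 10531 of all 18193 genes were called higher. Myog, the differentiation factor, had a difference below 0, with 11.4, 13.0 and 5.26 in endosteal samples A to C and 22.3, 26.7 and 10.3 in central samples A to C. Endosteal arrays A and B lay just above the lowest central array, so the groups overlapped. In endosteal RNA 5 of 43 olfactory probe sets read lower than Myog, and in central RNA 18 did. The log2 difference of -0.45 (95% interval -1.04 to 0.14) was not called (adjusted p = 0.278, limma). At these signals a difference in Myod1, Myf5 or Myog did not pass the test as fitted.

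Pax7, the satellite cell factor, read near background in both regions. Its first probe set had 7.66, 43.3 and 1.80 in endosteal samples A to C and 2.96, 10.1 and 5.03 in central samples A to C. Endosteal array B alone stood above the rest, and without it the difference went below 0 (-0.089). The second probe set averaged 11.5 ± 12.4 in endosteal and 10.8 ± 2.62 in central RNA (SD, n = 3 each). The log2 differences were 0.42 (95% interval -0.73 to 1.57, adjusted p = 0.604, limma over genes) and -0.051 (95% interval -0.85 to 0.75, adjusted p = 0.947, limma over probe sets). At most 12 of the 43 olfactory probe sets read lower than Pax7 in a region, in either probe set.

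Of the synapse members, Chrna1 was higher on every endosteal array without being called. It had 80.0, 136 and 24.6 in endosteal samples A to C, against 5.98, 11.3 and 11.97 in central samples A to C. Sample C was the endosteal one nearest to the central samples, and the mean of 80.3 ± 55.8 in endosteal RNA stayed under the olfactory 95th percentile. The log2 difference was 1.71 (SE 0.49, 95% interval 0.51 to 2.92, adjusted p = 0.0789, limma), and 2 of 43 olfactory probe sets showed a larger one. It passed without endosteal array C (2.24, adjusted p = 0.0225) and with an intensity trend in the variance (adjusted p = 0.0449). It also passed after scaling to the poly-A controls (2.29, adjusted p = 0.0107), where 10531 of all 18193 genes were called higher. The window printed for Chrna1 holds 3 E-boxes, as many as that of Musk. Whether E-boxes bear on these signals was not tested.

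Musk, the receptor-gathering kinase, had 81.6, 93.1 and 6.77 in endosteal samples A to C and 13.7, 83.8 and 72.4 in central samples A to C. Each region held 1 low array and 2 high ones, so the groups overlapped throughout. The log2 difference of -0.037 had a 95% interval from -1.95 to 1.88 (adjusted p = 0.981, limma), wide enough to hold a change the size of that of Chrna1 in either direction.

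Dmd had 4 probe sets, all near background in both regions, and they did not point one way. The one with the highest mean signal had 119, 40.4 and 113 in endosteal samples A to C, against 0.85, 3.17 and 37.8 in central samples A to C. The groups did not overlap, but endosteal array B and central array C lay close together. The difference was 1.94 (SE 0.57, 95% interval 0.53 to 3.35, adjusted p = 0.0848, limma), and 0 of 43 olfactory probe sets showed a larger one. Over probe sets, another 2 differed by 1.64 (adjusted p = 0.109) and 1.00 (adjusted p = 0.474), while the remaining one differed by -0.97 (adjusted p = 0.246), with 11.96 ± 16.4 in endosteal and 34.2 ± 10.6 in central RNA (SD, n = 3 each). The mean of all 4 passed (0.90, adjusted p = 0.0339), as did the first with an intensity trend (adjusted p = 0.0371). The first also passed after scaling to the poly-A controls (2.48, adjusted p = 0.00888), where 10531 of all 18193 genes were called higher.

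Mef2c was the opposite case, with a strong signal in both regions. It also serves B lymphocytes, endothelium, megakaryocytes and bone cells. Its brightest probe set had 2667, 1787 and 1058 in endosteal samples A to C, against 1766, 1771 and 2035 in central samples A to C. The endosteal arrays spread to both sides of the central ones, and the log2 difference was -0.11 (95% interval -0.96 to 0.74, adjusted p = 0.865, limma). The other 4 probe sets differed by 0.16 to 0.59 over probe sets, and 0 of the 5 were called (adjusted p = 0.221 to 0.885). In 3 of those 4 all endosteal arrays lay above all central ones.

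Markers of cells that can transcribe Mef2c moved in different directions on the same arrays. Of 11 B lymphocyte markers 0 were called higher and 4 lower. Of all genes 7.92% were called higher and 4.02% lower. Summed signals of the B lymphocyte markers were 8798 to 16681 on endosteal and 21829 to 34178 on central arrays. Of 6 megakaryocyte markers 4 were called higher (85856 to 100897 on endosteal and 23522 to 45796 on central arrays), of 8 macrophage markers 4 (27091 to 32395 and 17095 to 17737), and of 12 endothelial markers 10 (5926 to 6642 and 1512 to 2206), with 0 called lower in these 3 lists. After scaling to the poly-A controls 0 of 11 B lymphocyte markers were called lower. Their median was then 0.10, beside 0.97 for all genes. Without 1 array, 0 or 1 B lymphocyte markers were called lower (4 without endosteal sample C), 0 to 3 megakaryocyte markers higher (0 without endosteal sample A or B, 1 without central sample B or C) and 2 to 4 macrophage markers higher (2 without central sample A or C or endosteal sample C). With the letter as a block the numbers were 0, 0, 1 and, for endothelial markers, 1. No B lymphocyte or megakaryocyte marker was near background in either region. Their part in the Mef2c signal was not tested.

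**Figure D2:**
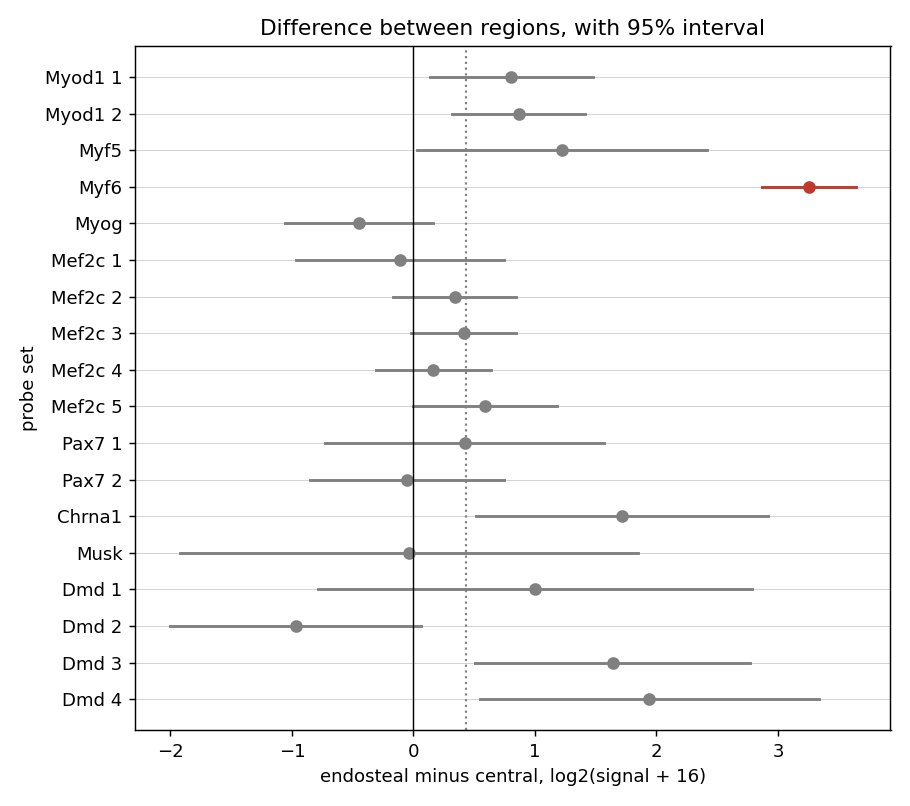
Difference between endosteal and central arrays on the log2(signal + 16) scale for the 18 member probe sets, with points for the estimate and bars for the 95% interval of the limma fit over all probe sets; red marks an adjusted p under 0.05, and the dotted line the median of 0.43 of 43 olfactory receptor probe sets. Myf6 alone is red, at 3.25, Musk has the widest interval, and the 4 Dmd probe sets run from -0.97 to 1.94.

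The muscle fibre genes rose on the arrays that carried Myf6. Of 32 measured fibre genes, among them myosins, troponins, creatine kinase and calcium-handling proteins, 28 were called higher and 0 lower. Of all genes 7.92% were called higher and 4.02% lower. The median log2 change of the fibre genes was 4.12, beside 0.10 for all genes. The number of fibre genes called higher was 22 to 31 without any 1 array and 19 with the letter as a block. Myl1, a fast myosin light chain, rose by 8.75, Tnnc2, a fast troponin, by 8.17 and Mb, the oxygen store, by 7.21. The change of Ckm, a creatine kinase gene of muscle, was 7.07. Of the 32, 24 had a larger log2 change than Myf6. Summed fibre signals were 200758, 115287 and 98915 in endosteal samples A to C, against 4516, 4555 and 5192 in central samples A to C. Between endosteal arrays the sum differed 2.03-fold, with A highest, while Myf6 differed 1.14-fold, with C highest. Osteoblast and osteocyte markers (6 of 9 called higher, summed signals of 63587 to 78773 on endosteal and 1605 to 2102 on central arrays) and the endothelial markers above rose on the same endosteal arrays, and their part in the values given here was not tested.

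**Figure D3:**
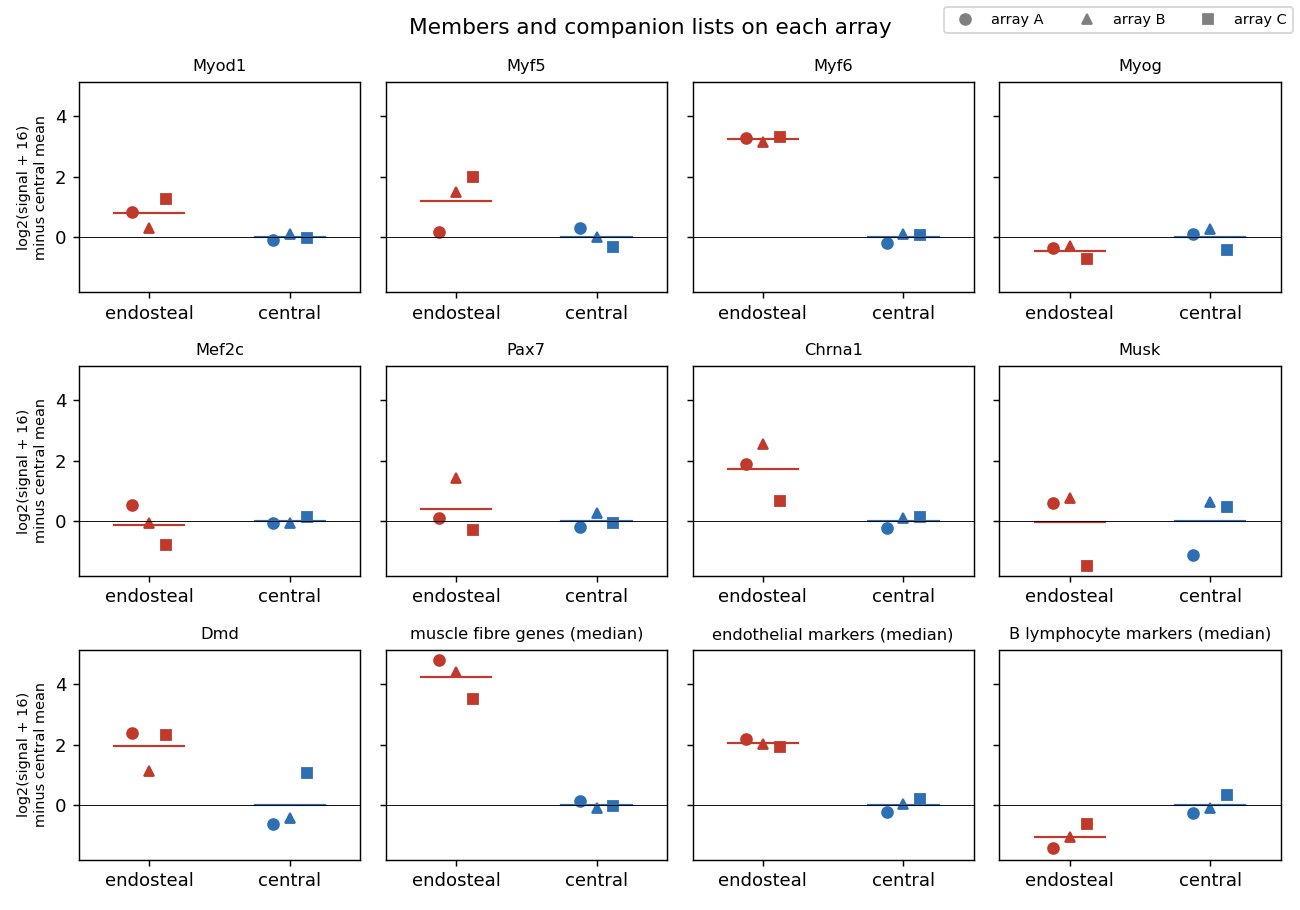
Signal on each array as log2(signal + 16) minus the central mean, for the 9 measured members and as the list median for muscle fibre genes, endothelial markers and B lymphocyte markers; red points are endosteal arrays, blue points central arrays, markers the letters, and lines the mean of 3 arrays. Myf6 sits at 3.15 to 3.32 on the endosteal arrays and the fibre median at 3.51 to 4.81, whereas Pax7 is high on 1 endosteal array and Musk is split within each region.

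Of 11 other satellite cell genes measured, listed apart from the members, 3 were called higher, where 7.92% of all genes were. Of the same 11, 0 were called lower, where 4.02% of all genes were. In 7 of the 11 all endosteal arrays lay above all central arrays, against 22.3% of all genes. Their median change was 0.47, beside 0.10 for all genes and 0.43 for the olfactory receptor probe sets. The called ones were Chodl, which encodes the lectin chondrolectin (107.8 ± 23.4 in endosteal and 16.7 ± 23.0 in central RNA, log2 change 2.12, adjusted p = 0.0466), Megf10, a receptor of satellite cells (1.67, adjusted p = 0.0486), and Peg3, an imprinted zinc finger gene that other cells also transcribe (1.55, adjusted p = 0.0126). None of these limma calls held with the letter as a block (adjusted p = 0.0827, 0.0566 and 0.0502), and 2 were called without central array A and 1 without each other array. After quantile normalisation 0 of the 11 were called. Scaling to the poly-A controls gave 9 of 11, where 10531 of all 18193 genes were called higher. Pax3, the close relative of Pax7, had 107.0 ± 27.5 in endosteal and 77.8 ± 18.4 in central RNA, with overlapping arrays (0.39, adjusted p = 0.336, limma). In central RNA 7 of the 11 were near background and in endosteal RNA 4 were.

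Satellite cell genes that other cell types share went both ways. Of 11 measured, 4 were called higher and 1 lower, where 7.92% and 4.02% of all genes were, with a median of 0.85. The adhesion molecule gene Vcam1, which marrow stroma and endothelium also carry, rose by 1.56, the signalling inhibitor gene Spry1 by 1.25, the syndecan gene Sdc3 by 1.05 and the integrin gene Itgb1 by 0.85, while the chemokine receptor gene Cxcr4, which blood cells carry, fell by 0.73. With the letter as a block 0 were called, and 2 were called higher without central sample A, central sample B or endosteal sample B, 3 or 4 without the others, and 0 lower in each case. After poly-A scaling 8 of 11 were called higher, where 10531 of all 18193 genes were.

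Of 12 genes of myoblast differentiation and fusion, 5 were called higher and 0 lower, where 7.92% and 4.02% of all genes were. Their median was 0.77. In 7 of the 12 all endosteal arrays lay above all central arrays, and in 1 all lay below. With arrays centred on their median 3 were called higher and 1 lower. Tead4 differed by -0.78 with the letter as a block (adjusted p = 0.161, limma). Neo1, a broadly expressed receptor that promotes fusion, rose by 3.41 (416.6 ± 121.9 in endosteal and 24.2 ± 9.96 in central RNA, adjusted p = 0.00483, limma) and kept its call with the letter as a block (adjusted p = 0.0443). Neo1 has 5 probe sets, and these values are of the one with the highest mean signal only. The actin gene Actc1 rose by 2.97, Klhl41, which stabilises the sarcomere, by 2.93 and the Tead cofactor gene Vgll2 by 1.61. With the block these 3 had adjusted p between 0.0712 and 0.102, and without any 1 array 1 or 2 of the 12 were called. Quantile normalisation left 2 called. Poly-A scaling gave 8 of 12, where 10531 of all 18193 genes were called higher. The myosins of forming and regenerating fibres were near background in both regions. Myh3, the embryonic one, had 50.9, 3.02 and 2.76 in endosteal samples A to C and 9.40, 8.31 and 5.67 in central samples A to C. Myh8, the perinatal one, had 12.7, 10.4 and 14.7 in endosteal and 2.12, 5.74 and 1.56 in central samples A to C. The Myh8 arrays did not overlap, but the difference of 0.58 was not called (adjusted p = 0.0570, limma), and that of Myh3 rested on array A (0.28, adjusted p = 0.767, limma).

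The relatives of Mef2c had a median below 0. Of 7 genes of the Mef2 family and of the histone deacetylases that bind it, 0 were called higher and 1 lower. Of all genes 7.92% were called higher and 4.02% lower. The median of the 7 was -0.63. The called gene was Mef2d, at 1377 ± 143 in endosteal and 2470 ± 238 in central RNA (log2 change -0.84, adjusted p = 0.0254, limma; 0.0720 with the letter as a block). The number called lower was 4 when arrays were centred on their median. After scaling to the poly-A controls the median of the 7 was 0.18, beside 0.97 for all genes, with 1 called higher and 0 lower. Without any single array other than endosteal array B, which left 1, 0 of the 7 were called.

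Among 13 synapse genes 4 were called higher and 0 lower, where 7.92% and 4.02% of all genes were. Their median was 0.23. In 4 of the 13 all endosteal arrays lay above all central arrays, and in 2 all lay below. With the letter as a block Agrn differed by -0.74 (adjusted p = 0.174, limma) and Ache by -0.43 (adjusted p = 0.147, limma). Above the median level 2 of the 13 remained, and 2 were called lower, with 1725 genes lower in all. Centring arrays on their median gave 3 called higher and 1 lower. Col13a1, a membrane collagen of the synapse, rose by 2.90 (251.7 ± 68.9 in endosteal and 21.5 ± 15.8 in central RNA, adjusted p = 0.0126, limma; 0.0499 with the letter as a block). Rapsn, which encodes rapsyn, the anchor of acetylcholine receptors, had 126, 48.0 and 91.6 in endosteal samples A to C, against 11.97, 7.58 and 5.45 in central samples A to C. The groups were well apart (log2 change 2.04, adjusted p = 0.0184, limma; 0.0622 with the block), although its endosteal mean of 88.4 was near background. The laminin gene Lamb2 rose by 1.98 and Lrp4, which is the agrin receptor of muscle and also a sclerostin receptor of bone cells, by 1.08 (adjusted p = 0.0960 and 0.121 with the block). With the block 1 of the 13 was called. Without central sample A 3 of the 13 were called, and 1 or 2 were without each other array. Quantile normalisation left 2 called. Poly-A scaling gave 6 of 13, where 10531 of all 18193 genes were called higher. The list median under it was 0.89, beside 0.97 for all genes. Under centring on the array median the median of the list was -0.04, and after quantile normalisation -0.06.

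None of the receptor's other subunits was called. Chrnb1, the beta subunit, averaged 62.2 ± 61.4 in endosteal and 114.4 ± 34.0 in central RNA (log2 difference -1.10, adjusted p = 0.369), and Chrnd, the delta subunit, 8.66 ± 3.78 and 33.1 ± 36.1 (-0.77, adjusted p = 0.365). The adult subunit gene Chrne and the fetal subunit gene Chrng differed by 0.56 (adjusted p = 0.608) and 0.20 (adjusted p = 0.899). Their arrays overlapped in all 4 cases and 0 were called by limma, with 0 at an unadjusted p under 0.05. Dok7, the cytoplasmic activator of Musk, had 183, 52.2 and 209 in endosteal samples A to C and 10.9, 57.0 and 164 in central samples A to C, so that its spread within each region exceeded the difference between them (1.04, SE 0.81, adjusted p = 0.457). A difference between Chrna1 and the other subunits was not itself tested.

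**Figure D4:**
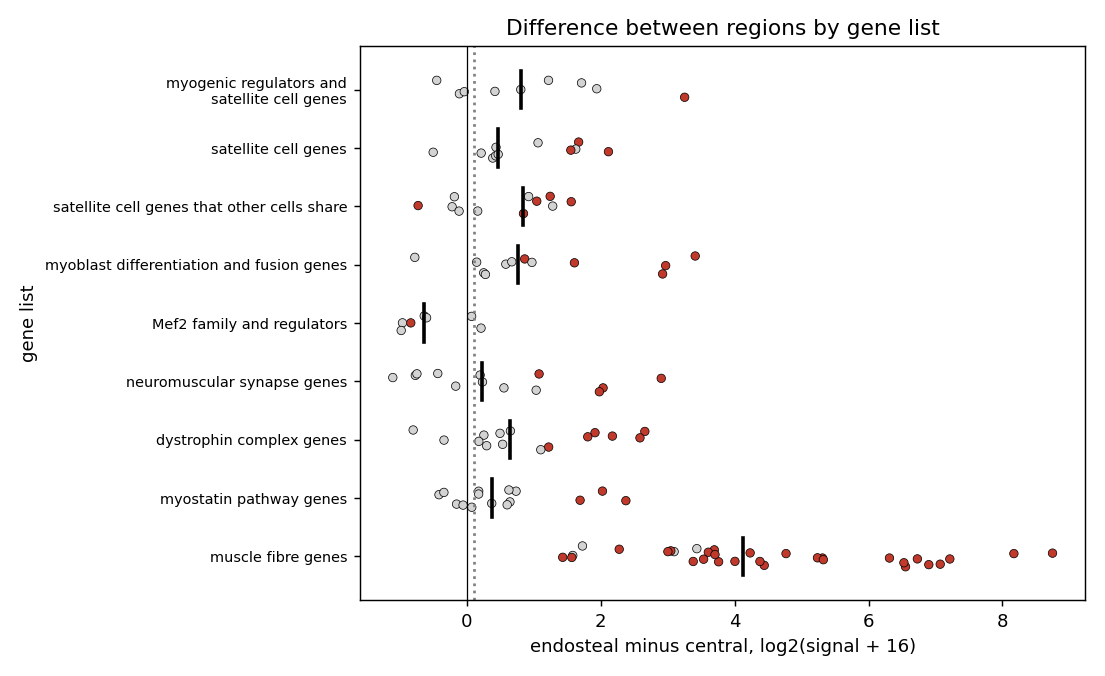
Log2 difference between endosteal and central arrays for each measured gene of the 9 members and of 8 companion lists; red points were called by limma, grey points were not, black bars are list medians and the dotted line is the median of all genes at 0.10. The fibre list has a median of 4.12, above the medians of the other lists shown, although its lower genes overlap their called genes, and the members' median is 0.81 with Myf6 as the only red point.

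Partners of dystrophin in the membrane complex rose in part. Of 15 measured, 6 were called higher and 0 lower, where 7.92% and 4.02% of all genes were, with a median of 0.65. In 8 of the 15 all endosteal arrays lay above all central arrays, and in 1 all lay below. With arrays centred on their median 6 were called higher and 1 lower. The tetraspan gene Sspn rose by 2.66 (265.4 ± 80.9 in endosteal and 29.5 ± 17.9 in central RNA, adjusted p = 0.0116, limma), Lama2, the laminin chain that the complex binds, by 2.59 (adjusted p = 0.00405), Cav3, the muscle caveolin, by 2.18 (adjusted p = 0.0137) and Sgca, the muscle sarcoglycan alpha, by 1.92 (adjusted p = 0.0138). Cav3 had 95.6, 105 and 75.9 in endosteal samples A to C, against 2.69, 3.75 and 20.6 in central samples A to C, although its endosteal mean of 92.3 was near background. Sgca had 123, 102.7 and 102.6 in endosteal and 28.5, 7.11 and 19.5 in central samples A to C. Both separated the regions fully, as Dmd's brightest probe set did. With the letter as a block Lama2 kept its call (adjusted p = 0.0455), and the other 3 had adjusted p between 0.0573 and 0.0761. The number called was 3 without central array B and 5 or 6 without each other array. It was 13 of 15 after poly-A scaling, where 10531 of all 18193 genes were called higher.

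The median of 15 genes in the pathway of Mstn was 0.37. Of the 15, 3 were called higher and 0 lower, where 7.92% and 4.02% of all genes were. The called ones were Bmp1, a protease that frees procollagen and myostatin of their propeptides (338.7 ± 141.0 in endosteal and 52.9 ± 32.1 in central RNA, 2.38, adjusted p = 0.0330, limma; 0.0498 with the block), Fst, whose product follistatin binds myostatin (2.03, adjusted p = 0.0321; 0.0761 with the block), and Trim63, a ubiquitin ligase of muscle wasting (1.69, adjusted p = 0.0333; 0.115 with the block). None of the 15 was called without central array B, endosteal array A or endosteal array B, 1 was without central array A, 3 without central array C and 2 without endosteal array C. After quantile normalisation 1 was called. Poly-A scaling gave 12 of 15, where 10531 of all 18193 genes were called higher.

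Markers of other tissues near a fibre were mixed. Of all genes 7.92% were called higher and 4.02% lower. Of 8 smooth muscle markers 2 were called higher, the pericyte gene Rgs5 at 3.93 and the contractile gene Tagln at 2.46, with a median of 0.46. Of 5 Schwann cell and nerve markers 2 were called higher, S100b at 2.15 and Pmp22 at 2.00, and 1 lower, Mbp at -0.88. Their summed signals were 2188 to 2423 on endosteal and 2632 to 2944 on central arrays. Most of each sum was Mbp, which averaged 1270 in endosteal and 2350 in central RNA. Mbp has 8 probe sets, and by the mean of a gene's probe sets 0 of the 5 were called lower. With the letter as a block 0 of these 13 were called, and Mbp was not called without central sample A or B. The number of Schwann cell and nerve markers called higher was 1 without central sample A, endosteal sample A or endosteal sample C. Their part in the signals of the synapse genes was not tested.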

How the data were processed

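Total RNA of 3 endosteal and 3 central marrow samples (2 micrograms each) was made into biotin-labelled cRNA for Affymetrix mouse arrays, per the labels' protocols. The values are the authors' deposited linear intensity for each of 45101 probe sets (64 of them Affymetrix controls). The summarising software is not given in the sources used here. All 6 arrays had a mean of 500.00 after trimming 2% at each end, so each appears to have been scaled by 1 factor. Median signals were 119.6 to 131 on endosteal and 97.2 to 106.3 on central arrays, and the number of arrays limits how precise each value is.

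Of the probe sets, 34945 named 1 gene by the platform annotation, 932 several, and 9160 were unnamed here. Symbols were looked up by gene identifier in RefSeq (GRCm38.p6), which found 34741 and changed 0. No build is named for the arrays. Only single-gene probe sets stand for a gene, which gave 18193 genes. The test was limma 3.58.1 in R 4.3.3 (lmFit and eBayes, two-sided, threshold 0.05), over all genes and over all 45037 probe sets, with standard errors and intervals from the same fit. It was also run on simulated arrays with independent noise. Those had no shared animals, so that run does not bear on arrays that share animals. With 3 arrays against 3 an exact permutation test cannot go below p = 0.1, so none is given.

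The members, gene lists and tests were chosen with earlier results of these data known. The rule for named genes took all members, the called genes of each other list (at most 4 in the main direction and 2 in the other), and Pax3, Rapsn, Dok7, Myh3, Myh8 and the receptor subunits. Alternatives were 2 other pseudocounts, 3 other scalings, a level filter, an intensity trend, fixed and random blocks by letter, the mean of a gene's probe sets, each array left out and the study's ratio of mean signals.

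The design gives 3 mice and 6 samples, so both regions share animals, though no source says that a letter is 1 mouse. After subtracting each region's mean, the pair of arrays with letter A had a correlation across all genes of 0.045, B of 0.039 and C of 0.015. Restricted to the brighter genes (above the median) these were 0.26 for A, 0.13 for B and 0.10 for C. The fit has no block, after the study's comparison of averages.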

Additional observations from a re-analysis of the deposited data

How the results depend on the processing

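Myf6 was called in all 16 alternatives that test it among genes (log2 change 1.81 to 5.21, adjusted p = 0.000366 to 0.0443, limma). The filter on level left Mef2c as the only member, so that 0 member genes and 0 member probe sets were called higher. After scaling to the poly-A controls 5 of 9 members were called higher among genes, where 10531 of all 18193 genes were. Among probe sets that scaling gave 11 of 18, where 19954 of all 45037 were called higher. An intensity trend gave 3 member genes and the mean of a gene's probe sets 2. The replicate block gave 0 member probe sets. Leaving out 1 array gave 1 to 2 member genes and 1 to 2 member probe sets. No member was called lower under any alternative.

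Over all genes, 1441 were called higher and 731 lower. Poly-A scaling gave 10531 and 46, an intensity trend 2215 and 1693, and the replicate block 143 and 6. Lower calls were 1725 above the median level, 2013 with arrays centred on their median and 1105 with pseudocount 64. Leaving out 1 array gave 549 to 928 higher and 101 to 307 lower. Over all probe sets, 1444 were higher and 582 lower, against 2778 and 2715 above the median level, 19954 and 100 with poly-A scaling, 3420 and 2913 with the trend, 857 and 232 with pseudocount 1, 2382 and 1466 with pseudocount 64, 0 and 0 with the replicate block, 1927 lower with centring, and 210 to 868 higher and 5 to 181 lower without 1 array. The median change of all genes was 0.97 with poly-A scaling, -0.17 with centring and -0.05 after quantile normalisation.

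Members that were not called changed sign in places. Mef2c went to 0.91 with poly-A scaling and 0.28 by the mean of its probe sets, and ran from -0.43 to 0.23 without 1 array. Musk went to 0.65 with poly-A scaling and 0.016 with pseudocount 64, and ran from -0.59 to 0.69 without 1 array. Myog went to 0.028 with poly-A scaling. Pax7 went to -0.051 when a gene was its probe set of highest mean log2 signal, an alternative chosen after the data were seen, and ran from -0.089 to 0.78 without 1 array. The cause was not tested. Signals this low limit what can be said of Pax7, Myod1, Myf5 and Myog.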
